A study of Mus musculus with 4 samples.

Results

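The genes described here are 9 cardiac troponin, sarcomere and muscle-enzyme genes: Tnnt2, Tnni3, Tnnc1, Actc1, Myl7, Myl4, Myh6, Ttn and Pgam2. They are 9 of the 32287 features counted in each library, and they were picked by name, with results of these data known, so their levels are given as a description. Values come from barcodes in which 1000 or more genes were detected and no more than 10% of UMIs (unique molecular identifiers, which count RNA molecules) were mitochondrial. All mice were 12 weeks old and carried the Wnt1-Cre2 driver, whose recombinase acts in neural crest cells, with the mT/mG reporter, in which recombined cells and their descendants make eGFP and the others make tdTomato. Cells were sorted for ITGA8, an integrin subunit of smooth muscle, and for GFP or RFP according to the segment, with 1 droplet library for each of the aortic arch (Arch-GFP), the aortic root (Root), GFP cells from the ascending aorta (Asc-GFP) and RFP cells from it (Asc-RFP). Root was split here into eGFP cells (at least 8 eGFP UMIs) and tdTomato cells (at least 1 tdTomato UMI and at most 2 eGFP UMIs). By its title, the series concerns smooth muscle cells of cardiac and neural crest origin and the response to loss of TGFβ signalling, and no TGFβ mutant is among these 4 libraries. How many animals each library pools was not given in the sources used here.

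In heart muscle, contraction is switched by the troponin complex on the thin filament. Troponin C binds calcium, troponin I holds the filament off, and troponin T, the product of Tnnt2, fastens the complex to tropomyosin. Smooth muscle has actin, myosin and tropomyosin but is regulated mainly through phosphorylation of the myosin light chain, and it is not built from sarcomeres. Smooth muscle of the aortic root and ascending aorta descends in part from the second heart field, whose progenitors also form heart muscle, and in part from the neural crest.

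The promoters of 3 members are shown: the thin-filament genes Tnnt2 and Actc1 and the enzyme gene Pgam2. The larger differences between groups were those of Tnnt2 and Pgam2, while most Actc1 UMIs lay in few cells. The promoter windows run from 250 bases before to 50 bases after the start of the transcript, read on the gene's strand. All 9 members were matched by symbol in the RefSeq promoter table, build GRCm38.p6. Capitals mark matches, on either strand, to the M-CAT motif CATTCC, to the letters GATAA of a GATA site, to the CArG box or to the MEF2 box, with no overlap among them in these 3 windows. Tnnt2, on the plus strand at chr1:135836084-135836383, has 1 M-CAT match and 2 GATA matches. Another Tnnt2 promoter is listed at chr1:135836739-135837038, is not shown, and has no match to any of these motifs. Actc1, on the minus strand at chr2:114052826-114053125, has a CArG box, and Pgam2, on the minus strand at chr11:5803747-5804046, has a MEF2 box and an M-CAT match.
Tnnt2: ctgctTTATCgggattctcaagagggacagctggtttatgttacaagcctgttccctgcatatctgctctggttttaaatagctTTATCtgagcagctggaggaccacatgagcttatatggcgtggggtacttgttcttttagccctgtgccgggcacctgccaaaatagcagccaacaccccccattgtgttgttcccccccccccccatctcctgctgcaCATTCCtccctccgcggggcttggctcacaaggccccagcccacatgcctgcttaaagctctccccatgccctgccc
Actc1: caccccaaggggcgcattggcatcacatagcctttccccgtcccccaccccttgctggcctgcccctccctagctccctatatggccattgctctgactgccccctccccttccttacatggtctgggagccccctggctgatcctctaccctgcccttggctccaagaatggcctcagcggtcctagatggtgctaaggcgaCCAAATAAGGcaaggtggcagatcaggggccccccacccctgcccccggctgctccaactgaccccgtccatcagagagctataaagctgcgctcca
Pgam2: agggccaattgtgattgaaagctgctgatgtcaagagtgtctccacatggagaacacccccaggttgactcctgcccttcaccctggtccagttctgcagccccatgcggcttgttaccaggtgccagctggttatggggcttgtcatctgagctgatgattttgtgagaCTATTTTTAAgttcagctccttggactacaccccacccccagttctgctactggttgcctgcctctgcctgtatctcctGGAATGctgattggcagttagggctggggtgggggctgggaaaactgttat

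These letters are common to differing degrees. CATTCC was found in 14.7% of all 32851 promoters of this length, GATAA in 25.4%, the CArG box in 1.63% and the MEF2 box in 3.19%. Among the first-listed promoters of the 9 members, 6 held CATTCC, 3 held GATAA, 2 held a CArG box (Actc1 and Myl7) and 2 held a MEF2 box (Ttn and Pgam2). A match is a string of letters and not a measured binding site, and no binding was measured here.

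The cells kept numbered 8031 in Arch-GFP, 613 in Root eGFP, 6408 in Asc-GFP, 2034 in Root tdTomato and 4030 in Asc-RFP, and 313 further Root cells fell in neither class. Median depth lay between 12628 and 13605 UMIs per cell in these 5 groups. The 8 smooth muscle markers, Acta2 and Myh11 among them, were all detected in every group and summed to between 45495 and 52995 CPM (UMIs per 1000000 UMIs of a group), so the labelled cell type is borne by its markers. Some cells carried 3 or more of 8 macrophage or of 8 endothelial markers: 102 and 49 cells in Root, 60 and 15 in Asc-RFP, and at most 2 in each GFP library. Between 9 and 34 barcodes were shared by each pair of libraries. Since each group is 1 library, no test was possible, intervals cover counting error only, and a spread between animals is not in them.

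Tnnt2 (ENSMUSG00000026414, chromosome 1, 135836354 to 135852260 in mm10) was the member with most UMIs in every group, and its level moved over a wide range. It was at 19.2 CPM in Arch-GFP (95% interval 18.3 to 20.1), 328 CPM in Root eGFP (316 to 340), 58.7 CPM in Asc-GFP (57.0 to 60.3), 993 CPM in Root tdTomato (981 to 1004) and 339 CPM in Asc-RFP (334 to 344). From high to low the order was Root tdTomato, Asc-RFP, Root eGFP, Asc-GFP and Arch-GFP, and of the neighbours in it the intervals of Root eGFP and Asc-RFP alone overlapped. Outside this order, the 313 Root cells in neither reporter class held Tnnt2 at 1006 CPM (971 to 1041), which overlaps the interval of Root tdTomato. Within a segment the eGFP cells were lower: the log2 ratio was -2.53 for Asc-GFP over Asc-RFP (-2.58 to -2.49) and -1.60 for Root eGFP over Root tdTomato (-1.66 to -1.54). Within a colour the root was higher, with 2.48 for Root eGFP over Asc-GFP (2.41 to 2.55) and 1.55 for Root tdTomato over Asc-RFP (1.52 to 1.58). Among GFP cells the arch was lowest, at -1.61 over Asc-GFP (-1.69 to -1.54) and -4.09 over Root eGFP (-4.18 to -4.01). Root eGFP cells held about as much Tnnt2 RNA as the RFP cells of the ascending aorta, and 17.1 times the level of arch eGFP cells.

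**Figure D1:**
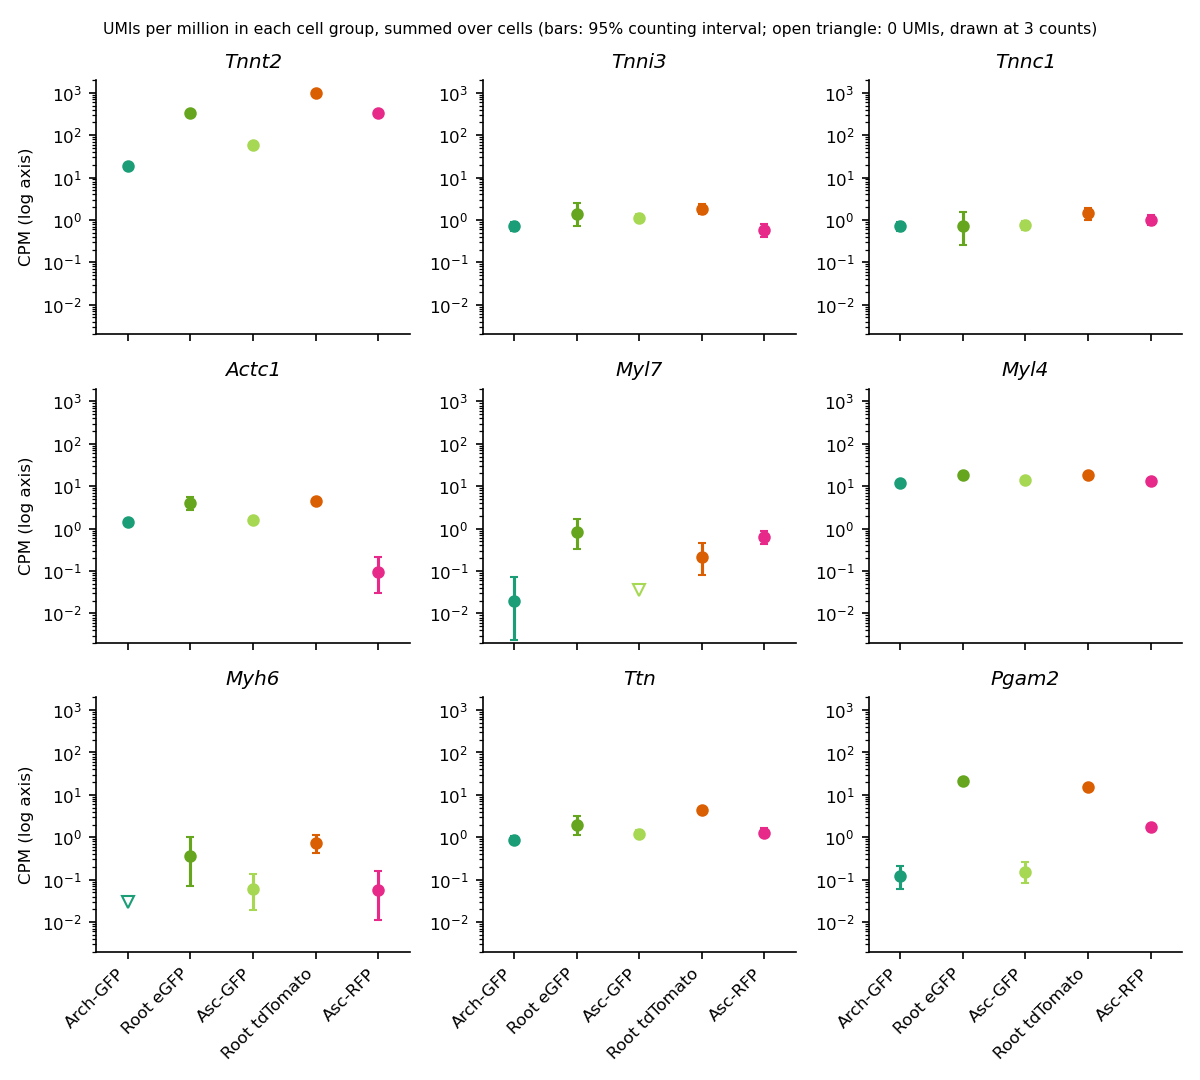
Level of each member in 5 cell groups, in CPM on a log axis, 1 panel per gene, with points for summed counts and bars for the 95% Poisson interval. Tnnt2 spans 19.2 to 993 CPM, Pgam2 is at 21.3 and 15.6 CPM in the Root classes and at most 1.72 CPM elsewhere, Myl4 stays between 12.0 and 18.4 CPM, and open triangles mark groups with 0 UMIs.

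Tnnt2 was spread over many cells and unevenly. At least 1 UMI was seen in 11.5% of Arch-GFP cells, 59.2% of Root eGFP cells, 24.9% of Asc-GFP cells, 73.9% of Root tdTomato cells and 63.3% of Asc-RFP cells. After every cell was thinned to 4000 UMIs, the shares were 5.45%, 41.4%, 13.01%, 58.1% and 43.6% in the same groups, with 787, 5, 283, 49 and 415 shallower cells left out. Had the Tnnt2 UMIs of each group been spread evenly by depth, 20.9%, 97.4%, 51.3%, 99.8% and 94.0% of cells would hold one, so in every group Tnnt2 RNA was concentrated in fewer cells than that. In Root tdTomato 21.6% of cells held 20 or more Tnnt2 UMIs, against 5.31% in Asc-RFP, and the fullest cell held 255 UMIs of its 20415. Single full cells also occurred where the level was low, with up to 86 UMIs in an Arch-GFP cell and 55 in an Asc-GFP cell, and the 1% of cells with most Tnnt2 held 34.5% of all Tnnt2 UMIs in Arch-GFP.

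**Figure D2:**
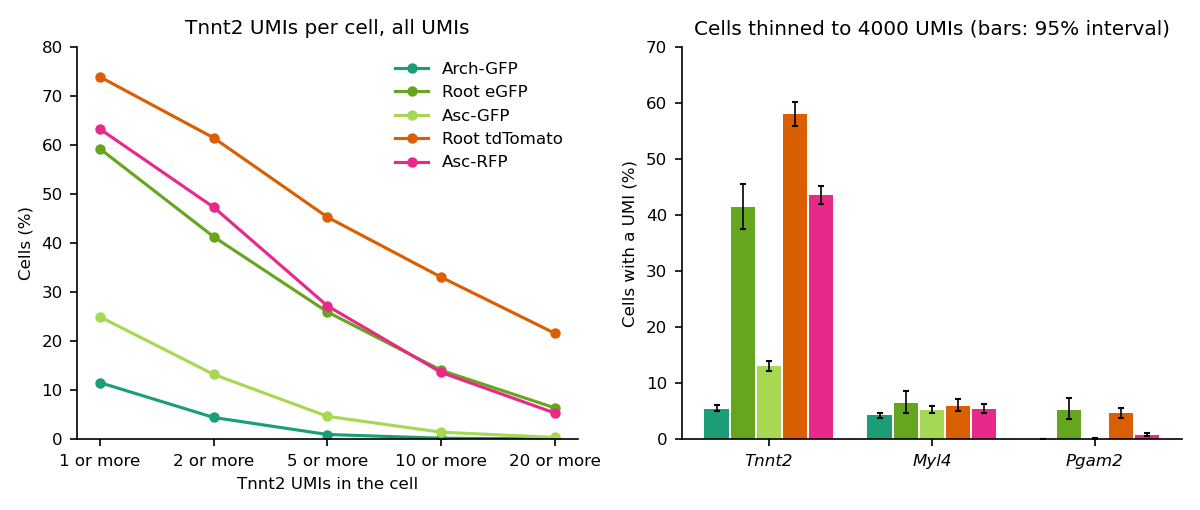
Left, the percentage of cells with at least 1, 2, 5, 10 or 20 Tnnt2 UMIs in 5 cell groups. Right, the percentage of cells with a UMI of Tnnt2, Myl4 or Pgam2 after thinning to 4000 UMIs, in the same colours, with 95% binomial intervals: Tnnt2 runs from 5.45% in Arch-GFP to 58.1% in Root tdTomato, while Myl4 stays between 4.25% and 6.41%.

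Tnnt2 was also counted in cells with markers of other types. The 49 Root cells with endothelial markers held Tnnt2 at 45.6 CPM in 18.4% of cells, against 875 CPM in 71.4% of the 2809 Root cells with neither marker set, with median depths of 6448 and 13386 UMIs. Acta2, the smooth muscle actin, was still at 1515 CPM in these endothelial-marker cells, against 19109 CPM. The 102 Root cells with macrophage markers held Tnnt2 at 308 CPM in 53.9% of cells together with Acta2 at 10715 CPM and Myh11 at 1629 CPM, so these barcodes carried smooth muscle RNA too. In Asc-RFP the 60 macrophage-marker cells held 69.1 CPM of Tnnt2 against 342 CPM in cells with neither set. Leaving all such cells out kept Tnnt2 past 2-fold in all 6 comparisons. Of the 613 Root eGFP cells, 37 carried more than 1 tdTomato UMI, with a median depth of 22870 UMIs and Tnnt2 at 606 CPM, and the 508 with 0 tdTomato UMIs held 284 CPM. Doublets were not removed, and the part of free RNA in these levels was not tested.

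The other subunits of the complex were close to undetected. Tnni3, the inhibitory subunit of the adult heart, was at 0.703 CPM in Arch-GFP, 1.41 CPM in Root eGFP, 1.13 CPM in Asc-GFP, 1.82 CPM in Root tdTomato and 0.574 CPM in Asc-RFP. Tnnc1, the calcium-binding subunit that heart and slow skeletal muscle share, was at 0.713, 0.704, 0.749, 1.43 and 1.02 CPM in the same groups. Neither reached 2% of cells in any of them, and in Asc-RFP 17 of the 55 Tnnc1 UMIs lay in 1 cell with 169 Acta2 and 4 Tnnt2 UMIs. For every Tnnc1 UMI there were 26.9 Tnnt2 UMIs in Arch-GFP, 466 in Root eGFP, 78.3 in Asc-GFP, 695 in Root tdTomato and 333 in Asc-RFP. These ratios are of UMIs at the 3′ end and are compared between groups, not as amounts of protein. Over the cells of Root tdTomato, Tnnt2 correlated with Tnni3 at r = 0.11 and with Tnnc1 at r = 0.05 (2034 cells of 1 library, which share depth), and in Asc-RFP at r = 0.00 and r = 0.01 (4030 cells).

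Actc1, cardiac alpha-actin (ENSMUSG00000068614, chromosome 2, 114047282 to 114053548), was a gene of few cells. Its level was 1.47 CPM in Arch-GFP (148 UMIs), 3.99 CPM in Root eGFP (34 UMIs), 1.63 CPM in Asc-GFP (137 UMIs), 4.54 CPM in Root tdTomato (127 UMIs) and 0.0927 CPM in Asc-RFP (5 UMIs). Most of these UMIs lay in single cells. In Root tdTomato 5 cells with 5 or more UMIs held 78.0% of them, in Asc-GFP 6 cells held 69.3%, in Arch-GFP 7 cells held 61.5% and in Root eGFP 2 cells held 94.1%. These cells had Acta2 counts between 101 and 570 and Myh11 counts between 23 and 111, and none of them held a UMI of Tnni3, Tnnc1, Myl7 or Myh6. The Actc1 ratios rest on a handful of cells, and with stricter cells (at least 2000 genes and at most 5% mitochondrial UMIs) the log2 ratio of Root eGFP over Asc-GFP was -1.44, against 1.29 with all kept cells. The log2 ratio of 4.14 for Asc-GFP over Asc-RFP (2.88 to 5.78) compares 137 UMIs with 5, and its interval treats the UMIs of a cell as independent.

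Of the cardiac myosin chains among the members, Myl4 alone was widely detected, and it stayed under 2-fold in all 6 comparisons. Myl4, an essential light chain of atrial and of fetal muscle, was at 12.0 CPM in Arch-GFP, 18.4 CPM in Root eGFP, 13.9 CPM in Asc-GFP, 18.3 CPM in Root tdTomato and 13.6 CPM in Asc-RFP. The share of cells with a UMI lay between 12.6% and 20.1%, close to the 13.8% to 22.2% that even spreading would give, and the fullest cell held 8 UMIs. The ratio was 0.01 for Root eGFP over Root tdTomato (-0.25 to 0.27) and 0.03 for Asc-GFP over Asc-RFP (-0.10 to 0.17), so no difference by colour was detectable at this depth. Against the ascending aorta the root was modestly higher, at 0.41 among eGFP cells (0.16 to 0.65) and 0.43 among tdTomato cells (0.26 to 0.59), and its largest ratio was -0.62 for Arch-GFP over Root eGFP (-0.86 to -0.37). The difference among eGFP cells turned to -0.13 in male cells (-1.20 to 0.77), and that among tdTomato cells was 0.13 (-0.11 to 0.36) with at least 2000 genes and at most 5% mitochondrial UMIs.

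The atrial regulatory light chain and the cardiac heavy chain were at the limit of detection. Myl7 had 2 UMIs in Arch-GFP, 7 in Root eGFP, 0 in Asc-GFP, 6 in Root tdTomato and 34 in Asc-RFP. Of those 34, 27 lay in 1 cell with 29043 UMIs, 22 Acta2 UMIs, 1 Myh11 UMI and 2 Tnnt2 UMIs, so the Asc-RFP level is that of 1 cell. Against 3 counts as the floor for Asc-GFP, Myl7 was at least 17.7-fold lower there than in Asc-RFP, and that bound rests on the same cell. Myh6, the alpha heavy chain that predominates in the adult mouse heart, had 0 UMIs in Arch-GFP, 3 in Root eGFP, 5 in Asc-GFP, 20 in Root tdTomato and 3 in Asc-RFP. Myh6 was seen in 10 of 2034 Root tdTomato cells, the fullest of which held 4 Myh6 and 84 Tnnt2 UMIs. Per thinned Tnnt2 count, Root tdTomato cells with 0 or 1 Tnnt2 UMI of 4000 had 0 Myh6 UMIs, and the 499 cells with 5 or more had 18.

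Ttn, the giant protein that acts as the spring of the sarcomere, was low, and of the 5 groups it was highest in Root tdTomato cells. It was at 0.861 CPM in Arch-GFP, 1.99 CPM in Root eGFP, 1.20 CPM in Asc-GFP, 4.32 CPM in Root tdTomato and 1.28 CPM in Asc-RFP. The log2 ratio was 1.76 for Root tdTomato over Asc-RFP (1.32 to 2.21) and -1.12 for Root eGFP over Root tdTomato (-1.94 to -0.38), both under the 5 CPM set for a call. In Root tdTomato 5 cells with 5 or more UMIs held 33.9% of the Ttn counts, and all of these cells also held Tnnt2. The 313 Root cells in neither reporter class were higher still, at 10.1 CPM (6.89 to 14.2, 32 UMIs), and the 49 Root cells with endothelial markers held Ttn at 14.4 CPM (5.29 to 31.4, 6 UMIs). Whether reads in introns were counted was not given in the sources used here, and Ttn, a long gene, could take counts from them.

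Pgam2 (ENSMUSG00000020475, chromosome 11, 5801640 to 5803733) is the muscle form of phosphoglycerate mutase, a glycolytic enzyme and not a sarcomere protein. Most of its UMIs came from the root, from cells of both colours. It was at 0.119 CPM in Arch-GFP (12 UMIs), 21.3 CPM in Root eGFP (182 UMIs), 0.155 CPM in Asc-GFP (13 UMIs), 15.6 CPM in Root tdTomato (437 UMIs) and 1.72 CPM in Asc-RFP (93 UMIs). The log2 ratio was 7.11 for Root eGFP over Asc-GFP (6.30 to 8.05), 3.18 for Root tdTomato over Asc-RFP (2.85 to 3.52) and -7.49 for Arch-GFP over Root eGFP (-8.47 to -6.65). The size differed between cells called male and female: in male and in female cells these ratios were 9.005 and 5.53 for Root eGFP over Asc-GFP, 4.65 and 2.73 for Root tdTomato over Asc-RFP, and -9.90 and -4.89 for Arch-GFP over Root eGFP. By colour the ratio was 0.45 in the root (0.19 to 0.70) and -3.48 in the ascending aorta (-4.44 to -2.64), where both groups were under 5 CPM. These intervals treat the UMIs of a cell as independent. Pgam2 was held by 10.1% of Root eGFP and 9.05% of Root tdTomato cells, where even spreading would give 25.2% and 19.1%, and the fullest cell held 14 UMIs. The 13 Root eGFP cells with 5 or more Pgam2 UMIs held 50.5% of the Pgam2 counts of that class, and 23 such Root tdTomato cells held 39.6%. Pgam1, the form of most other tissues, stayed between 125 and 148 CPM in the 5 groups.

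Male and female cells differed in Pgam2 within the root. Cells were called male or female where they held UMIs of 1 or more of 4 Y-linked genes or of Xist, and not both. Pgam2 was at 98.7 CPM in the 65 male and 6.59 CPM in the 507 female Root eGFP cells, a log2 ratio of 3.90 (3.37 to 4.45), and at 50.9 CPM in the 238 male and 8.72 CPM in the 1670 female Root tdTomato cells, a ratio of 2.54 (2.24 to 2.85). A Pgam2 UMI was seen in 35.4% of male and 4.34% of female Root eGFP cells. Cells without a sex call held Pgam2 as well. In Root eGFP it was at 122 CPM in 30 cells with neither marker (42 UMIs) and 45.1 CPM in 11 cells with both. In Root tdTomato it was at 32.5 CPM in 84 cells with neither and 54.7 CPM in 42 cells with both. In Asc-RFP the levels were 2.02 CPM in male and 1.31 CPM in female cells (0.63, -0.05 to 1.32), a difference not detectable at this depth. Male cells and the animals they came from cannot be told apart, because the number of mice of each sex in the library was not given in the sources used here. The colour ratio of Pgam2 in Root was 0.96 in male cells (0.56 to 1.34) and -0.40 in female cells (-0.89 to 0.06). Tnnt2 differed less, at 268 CPM in male and 334 CPM in female Root eGFP cells, a log2 ratio of -0.32 (-0.52 to -0.12). In male and female Root tdTomato cells it was at 1005 and 1001 CPM (0.01, -0.05 to 0.06). The male over female ratio of Tnnt2 was 0.20 in Asc-GFP (0.10 to 0.30), 0.21 in Arch-GFP (0.05 to 0.38) and 0.02 in Asc-RFP (-0.02 to 0.06). Female cells made up between 29.1% (Arch-GFP) and 88.6% (Root eGFP) of the cells with a sex call.

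**Figure D3:**
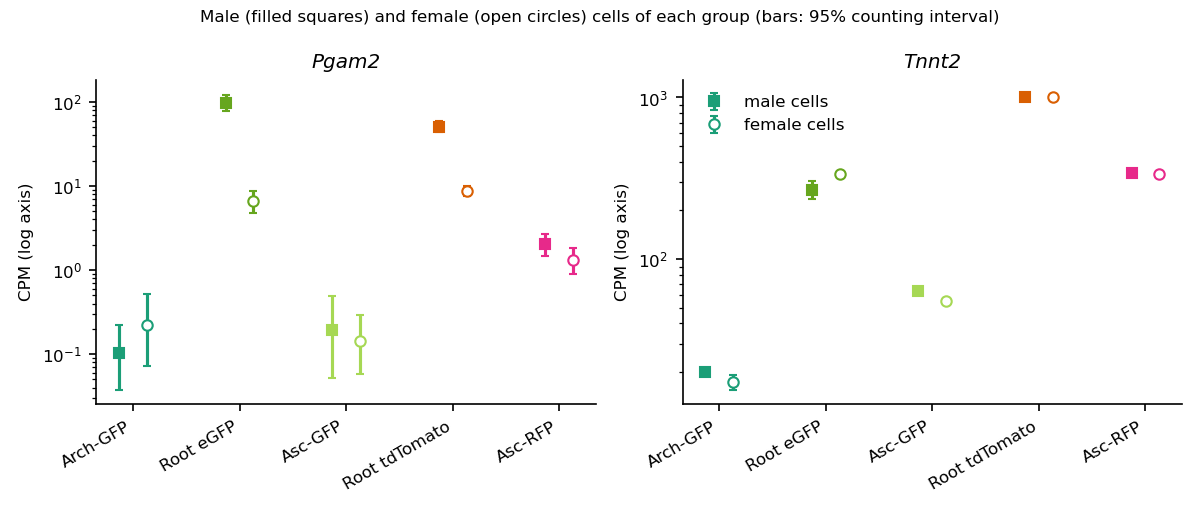
Level of Pgam2 (left) and Tnnt2 (right) in male cells (filled squares) and female cells (open circles) of each group, in CPM on a log axis, with 95% Poisson intervals. In Root eGFP, Pgam2 is at 98.7 CPM in male and 6.59 CPM in female cells, and Tnnt2 is at 268 and 334 CPM. In Root tdTomato, Tnnt2 is at 1005 and 1001 CPM in male and female cells.

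A size rule of 2-fold, applied where a gene reached 5 CPM in 1 of the 2 groups, was set beside the same share for all genes. Because the members were chosen with such ratios known, nothing is read from these counts. For Asc-GFP over Asc-RFP, 2 of the 9 members were measured and 1, Tnnt2, was lower, against 0.916% of 9711 genes lower and 1.28% past 2-fold in either direction. For Arch-GFP over Asc-GFP, 2 were measured and Tnnt2 was lower, against 0.144% of 9733 genes lower and 0.914% in either direction. For Root eGFP over Root tdTomato, 3 were measured and Tnnt2 was lower, against 1.85% of 9858 genes lower and 2.1% in either direction. For Root tdTomato over Asc-RFP, 3 were measured and Tnnt2 and Pgam2 were higher, against 2.24% of 9903 genes higher and 3.11% in either direction. For Root eGFP over Asc-GFP the same 2 of 3 were higher, against 1.1% of 9741 genes higher and 1.93% in either direction. For Arch-GFP over Root eGFP they were the 2 of 3 that were lower, against 1.64% of 9875 genes lower and 3.9% in either direction. The comparisons share groups, so these counts are not independent of one another.

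**Figure D4:**
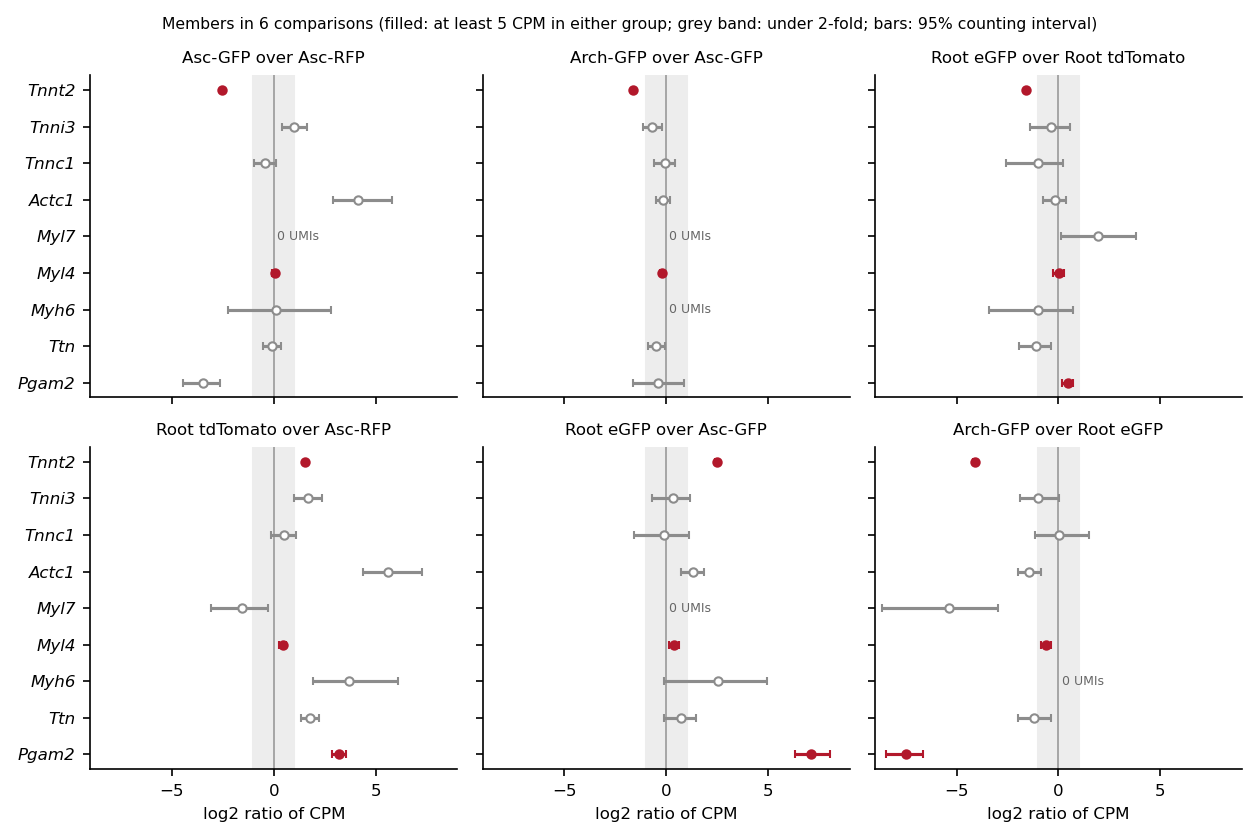
The log2 ratio of CPM of each member in 6 comparisons, with filled points for members at 5 CPM or more in either group, open points for the rest, a grey band for less than 2-fold and bars for the 95% counting interval. Tnnt2 lies outside the band in every panel, from -4.09 to 2.48, Pgam2 reaches -7.49 and 7.11 where the root meets another segment, and "0 UMIs" marks a member with none in 1 or both groups.

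Few kept cells held 3 or more members. Most members were each detected in few cells, and no expected share was computed. These counts therefore cannot show whether members avoid or accompany one another. No kept cell held 7 or more of the 9 members. At least 3 were seen in 5 of 8031 Arch-GFP cells (0.0623%), 13 Root eGFP cells (2.12%), 23 Asc-GFP cells (0.359%), 64 Root tdTomato cells (3.15%) and 28 Asc-RFP cells (0.695%). Of the 5 genes most typical of heart muscle (Tnni3, Tnnc1, Actc1, Myl7 and Myh6), at least 1 was seen in 5.01% of Root tdTomato cells and 2 or more in 8 of 2034. In 1 kept Root cell in neither reporter class, 239 Tnnt2 UMIs came with 1 UMI each of Tnni3, Tnnc1, Myh6 and Pgam2 and 3 of Ttn, beside 183 Acta2 and 37 Myh11 UMIs.

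Most members together were met in Root barcodes that the cell filter removed. One such barcode, with 1274 UMIs, 595 genes and 0.628% mitochondrial UMIs, held 8 of the 9 members: 37 Tnnt2, 17 Tnni3, 8 Tnnc1, 20 Actc1, 24 Myl7, 56 Myl4, 3 Myh6 and 1 Pgam2 UMIs. It also held 10 UMIs of Mb, myoglobin, 3 of Nppa, the atrial natriuretic peptide, and only 5 of Acta2, and the members made up 13.03% of its UMIs. Another, with 540 UMIs and 41.5% mitochondrial UMIs, held 7 members, with 6 Myl7, 10 Myl4 and 5 each of Tnnt2, Tnni3 and Actc1. In all kept Root cells together, 33773 Tnnt2 UMIs stood beside 69 of Tnni3 and 54 of Tnnc1. Outside Root, no barcode of any kind held 5 or more members.

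Along Tnnt2, other genes of the cells moved unequally. Cells were grouped by Tnnt2 UMIs after thinning to 4000, so that depth did not decide the group. Des, the muscle intermediate filament desmin, was at 264 CPM in Asc-RFP cells with 0 Tnnt2 UMIs, 327 CPM with 1, 412 CPM with 2 to 4 and 633 CPM with 5 or more. In Root tdTomato cells the same groups were at 210, 232, 344 and 401 CPM, and in Root eGFP cells at 36.0, 26.5, 107 and 74.9 CPM, with no steady order. Acta2 stayed between 24332 and 25639 CPM in Asc-RFP and between 17667 and 18710 CPM in Root tdTomato. Pgam2 ran the other way in Root eGFP, at 27.6 CPM with 0 Tnnt2 UMIs and 16.7 and 15.5 CPM in the middle groups. With 5 or more it was at 1.36 CPM (0.0345 to 7.59). In Root tdTomato Pgam2 was at 21.8, 21.3, 5.27 and 10.3 CPM, with no steady order. Male cells, which held more Pgam2 in both Root classes, less often held a Tnnt2 UMI in both. In Root eGFP the shares with Tnnt2 were 44.6% of male and 61.9% of female cells. Whether Pgam2 falls along Tnnt2 within 1 sex was not tested. Myl4 was at 20.3, 19.8 and 22.4 CPM in the first 3 groups of Root tdTomato and at 11.4 CPM (9.07 to 14.2) with 5 or more, while in Asc-RFP it was at 13.5, 14.2, 14.4 and 12.6 CPM and in Asc-GFP at 13.6, 14.5, 18.6 and 18.2 CPM. In Root tdTomato, Tnni3 was at 0.881 CPM with 0 Tnnt2 UMIs and 3.89 CPM (2.59 to 5.63) with 5 or more. Ttn was at 2.12 and 5.56 CPM there, and Tnnc1 at 0.793 and 2.22 CPM, with overlapping intervals for Tnnc1 alone. In Asc-RFP no such rise was seen, with Tnni3 at 0.574 and 0.234 CPM and Ttn at 1.35 and 0.468 CPM. Tnnc1 was at 0.675 and 0.468 CPM there. In Root eGFP none of these genes had more than 8 UMIs in a group. All these levels are of cells of 1 library each and carry no test.

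**Figure D5:**
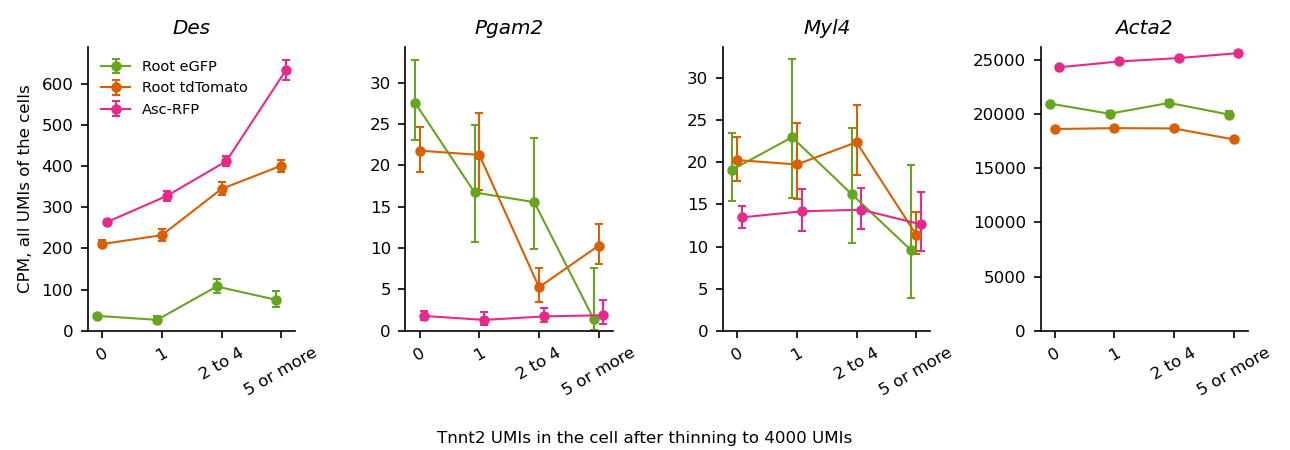
Level of Des, Pgam2, Myl4 and Acta2 (CPM from all UMIs, linear axes from 0) in cells grouped by their Tnnt2 UMIs after thinning to 4000, for Root eGFP, Root tdTomato and Asc-RFP cells, with 95% Poisson intervals. Des climbs to 633 CPM in Asc-RFP and 401 CPM in Root tdTomato in the group with 5 or more, and Acta2 stays within 17667 to 25639 CPM in both.

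The genes whose levels over the 5 groups were most like Tnnt2, by the root mean square difference of centred log2(CPM + 1), were macrophage genes when all kept cells were used: Tyrobp (0.50), Pf4 (0.53), C1qc (0.60), Fcer1g (0.62) and Folr2 (0.63). Tnnt2 itself ranged over 5.62 on that scale. They reached 24.7 to 91.1 CPM in Root tdTomato and at most 0.277 CPM in Arch-GFP. Without the cells that held 3 or more macrophage or endothelial markers, an alternative chosen after this was seen, they were Col8a1 (0.75), Cp (0.84), Arhgdib (0.91), Cd34 (0.97) and Tmem176b (0.97). For Pgam2 the nearest genes were Thbs1 (0.54), Corin (0.54), Tmem176b (0.64), Rgs17 (0.67) and Col8a1 (0.72), of which all but Col8a1 were among the nearest 5 without those cells too. Over the cells of Asc-RFP, genes with high r with Tnnt2 included Psd (0.23), Fbln1 (0.21), Des (0.19) and Gpc3 (0.16), and in Root tdTomato, a group added later, Col14a1 (0.39), Cp (0.38), Psd (0.36) and Unc13c (0.33). These cells share a library and depth, and the r values are a description.

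Most other genes of the cardiac sarcomere differed little between groups where they were measured, and so did most genes of any kind. Of all measured genes, 0.914% (Arch-GFP over Asc-GFP) to 3.9% (Arch-GFP over Root eGFP) were past 2-fold in either direction. A list this short therefore cannot show whether its genes differ less than others. The same limit holds for the smooth muscle and energy enzyme lists below. Of 28 further sarcomere genes, 12 reached 5 CPM in a group, led by Myom1, the M-band protein myomesin, at 431 CPM in Arch-GFP, 515 CPM in Root eGFP, 473 CPM in Asc-GFP, 510 CPM in Root tdTomato and 465 CPM in Asc-RFP. Tcap, the titin cap (89.5 to 118 CPM), Ldb3, a Z-disc protein (79.5 to 103 CPM), and Xirp1 (64.9 to 101 CPM) were also detected in all groups. None of the measured genes of this list passed 2-fold in the comparisons by colour, in Arch-GFP over Asc-GFP or in Root tdTomato over Asc-RFP. Ankrd1 was the only one past 2-fold in the other comparisons, at 51.6 CPM in Root eGFP against 21.4 CPM for Asc-GFP, and at 19.0 CPM for Arch-GFP against Root eGFP. Its log2 ratio of -0.97 for Asc-GFP over Asc-RFP (-1.06 to -0.88) ran in the direction of Tnnt2 just under 2-fold, and 0.15 for Root eGFP over Root tdTomato (-0.01 to 0.30) did not. Myh7, Myl2 and Tnni1, of ventricular or fetal heart muscle, were each under 0.3 CPM in every group. Lmod2, a thin-filament protein named after its values were seen, was at 4.501 CPM in Root tdTomato and at most 0.704 CPM elsewhere.

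Of 16 smooth muscle contractile genes, all were measured and only Des passed 2-fold, lower in the eGFP cells of both segments, at 44.9 CPM for Asc-GFP against 332 CPM for Asc-RFP and 50.4 CPM for Root eGFP against 288 CPM for Root tdTomato. Acta2 was between 18385 and 24637 CPM in the 5 groups. Skeletal muscle isoforms were low: of 17, only Tnnt1, slow skeletal troponin T, reached 5 CPM, at 7.37 CPM for Asc-GFP against 3.15 CPM for Asc-RFP, the one pair in which it passed 2-fold. Under that minimum, Myoz1 was at 4.46 CPM in Root eGFP and 3.72 CPM in Root tdTomato, and at 0.792 to 1.84 CPM elsewhere. Acta1 was at 2.11 and 1.46 CPM in these Root classes and at 0.139 to 0.428 CPM elsewhere. Ckm was at 2.54 to 3.75 CPM in the 5 groups. Of 15 cardiomyocyte genes outside the sarcomere, 3 were measured, Hspb7 (164 to 223 CPM), Ryr2 (47.2 to 67.1 CPM) and Fabp3 (17.5 to 55.9 CPM), and Fabp3, a fatty acid binding protein, was past 2-fold in Arch-GFP over Root eGFP, at 55.9 against 22.6 CPM. Mb and Nppa were under 0.3 CPM in all groups.

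Heart transcription factors were measured for 10 of 14 genes. Mef2c (289 to 332 CPM), Mef2a (174 to 212 CPM), Hand2 (88.1 to 133 CPM) and Myocd (96.0 to 125 CPM) stayed under 2-fold in all 6 comparisons. Gata4, Tbx20 and Isl1 passed that size in some pairs and were named after their values were seen. Gata4 was at 15.4 CPM for Root eGFP against 2.02 CPM for Asc-GFP, at 14.1 CPM for Root tdTomato against 2.71 CPM for Asc-RFP, and at 0.0198 CPM for Arch-GFP. Tbx20 was higher in Asc-GFP (29.6 CPM) than in Asc-RFP (12.3 CPM), the reverse of Tnnt2, at 40.7 CPM for Root tdTomato against Asc-RFP, and at 13.6 CPM in Arch-GFP, lower than in Asc-GFP and in Root eGFP (44.5 CPM). Isl1 was at 2.34 CPM for Asc-GFP against 5.11 CPM for Asc-RFP and at 2.93 CPM for Root eGFP against 6.54 CPM for Root tdTomato. Nkx2-5, which switches on heart genes early in development, was at most 2.89 CPM. Of 9 muscle energy enzymes, 8 were measured and none passed 2-fold in the 6 comparisons, with Aldoa at 457 to 540 CPM and Ckb at 207 to 499 CPM.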

How the data were processed

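RNA was counted in single cells of 4 libraries, 1 per group, with no replicate. Per the labels' protocols, tissue was dissociated by cold enzymatic digestion, ITGA8-positive GFP or RFP cells were sorted and 10x Genomics 3′ v3.1 libraries were made. The deposited values are raw UMI counts for each gene in each barcode, and per the file headers Cell Ranger 7.0.0 made them. The submitters' processing notes name the build mm10 and Seurat 4.3, and no Seurat output was used. Whether counting used the strand or included introns was not given in the sources used here. With a minimum of 1000 genes and a maximum of 10% mitochondrial UMIs, 8031 of 10506 Arch-GFP, 2960 of 4040 Root, 6408 of 8845 Asc-GFP and 4030 of 6539 Asc-RFP barcodes were kept, and in that order the submitters state 4710, 1841, 4050 and 2450 cells after their own filter.

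UMIs were summed over cells and divided by the total UMIs to give CPM (Python 3.11.15, scipy 1.17.1, numpy 2.4.6). Levels have exact Poisson, shares exact binomial (Clopper-Pearson) and ratios exact conditional binomial intervals at 95%, for counting error only. A count of 0 was set against 3 counts. Between-group shares were thinned to 4000 UMIs per cell, seed 1. Doublets and free RNA were not removed: Xist and Y-linked UMIs met in 10.2% of cells for Arch-GFP, 1.93% for Root, 9.47% for Asc-GFP and 5.26% for Asc-RFP. The ratio step was run on Poisson counts simulated for whole groups, without cells. That run cannot show how the intervals hold where the UMIs of a gene are concentrated in few cells. Per-cell r used log1p of UMIs per 10000, with the highest r sought among genes in at least 5% of cells and r given for the members whatever their share. The members and gene lists were chosen with earlier results of these data known. All 9 members were named. The 5 genes most like Tnnt2 and Pgam2 over the groups were named too, from genes with at least 20 CPM in a group. From each other list the rule was to name up to 4 genes of highest CPM. Of those, Tagln, Myl6, Tpm2, Eef1a2 and Ldhb are not described. Ankrd1, Lmod2, Myh7, Myl2, Tnni1, Des, Mb, Nppa, Gata4, Tbx20, Isl1 and Nkx2-5 were described outside this rule and are a selection. Gene positions are from GENCODE M21 and promoters from RefSeq. Alternatives were other cell filters, scalings, CPM minimums, reporter thresholds and thinning depths, leaving out cells, and each sex alone.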

Additional observations from a re-analysis of the deposited data

Results flagged for a closer look

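From summed UMIs, the ratio of Pgam2 by reporter colour had opposite signs in the 2 segments. Its log2 ratio was 0.45 for eGFP over tdTomato cells of Root (182 and 437 UMIs) and -3.48 for Asc-GFP over Asc-RFP (13 and 93 UMIs). Both counting intervals lie clear of 0, but they treat the UMIs of a cell as independent. In Root eGFP, 13 cells held 50.5% of the Pgam2 UMIs. By cells, 10.1% of Root eGFP (7.84% to 12.8%) and 9.05% of Root tdTomato cells (7.83% to 10.4%) held Pgam2, with overlapping intervals. The direction in Root is therefore not settled. The difference between the segments was not tested, since each group is 1 library. Within Root the colour ratio was 0.96 in male and -0.40 in female cells.

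In Root barcodes outside the cell filter, which enter no comparison, 3 held 5 or more members: 1 with 8 of 9 members and 166 member UMIs, 1 with 7 and 34 UMIs, and 1 with 5 and 13 UMIs, the last with 88.6% mitochondrial UMIs. No barcode outside the filter in the other 3 libraries held as many.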

How the results depend on the processing

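Of 67 recounts of the members past 2-fold under the alternatives, 61 stayed within 1.5 times the count given and 6 did not. With a minimum of 1 CPM the counts were 3 for Asc-GFP over Asc-RFP, 3 for Root eGFP over Root tdTomato, 5 for Root tdTomato over Asc-RFP and 5 for Arch-GFP over Root eGFP, where 3.16%, 5.92%, 6.58% and 7.59% of all genes passed in either direction. With a minimum of 20 CPM, 1 was left for Root tdTomato over Asc-RFP, and in male cells there were 2 for Root eGFP over Root tdTomato. These 2 minimums change which genes enter, and in male cells Actc1 was added, for which the cause was not tested. Of 435 member ratios recomputed, 367 stayed within the counting interval and 68 moved, with no change of sign in a member past 2-fold at 5 CPM or more. Tnnt2 kept its direction and stayed past 2-fold under every alternative run, between -2.62 and -2.43 for Asc-GFP over Asc-RFP, -1.80 and -1.60 for Arch-GFP over Asc-GFP, -1.91 and -1.57 for Root eGFP over Root tdTomato, 1.496 and 1.60 for Root tdTomato over Asc-RFP, 2.08 and 2.60 for Root eGFP over Asc-GFP, and -4.35 and -3.74 for Arch-GFP over Root eGFP. Pgam2 ran from 5.53 to 9.005 for Root eGFP over Asc-GFP, from female to male cells. Actc1, under 5 CPM in all groups, changed sign with stricter cells (at least 2000 genes, at most 5% mitochondrial): 2.25 for Arch-GFP over Root eGFP, against -1.44, and -1.44 for Root eGFP over Asc-GFP, against 1.29. The setting with eGFP cells free of tdTomato UMIs, and the likeness without cells of other types, were chosen after seeing the data. Thinned to 2000 and 8000 UMIs, 2.93% and 8.91% of Arch-GFP, 30.02% and 50.8% of Root eGFP, 8.36% and 19.95% of Asc-GFP, 48.3% and 67.2% of Root tdTomato and 33.7% and 55.8% of Asc-RFP cells held Tnnt2. Root eGFP, with 613 cells, has the least precise levels. No paired analysis was possible because each group is 1 library and the labels carry no replicate numbers.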
